A study of Mus musculus with 12 samples.

Results

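The 1866 transcripts described here are putative noncoding RNAs of mouse kidney whose recorded database match is a conserved region predicted by EvoFold. They were chosen by the text of that match alone, among 42452 transcripts listed in 1 or more of 12 libraries, and 1 further transcript with such a match, ncRNA_aligned_943, was left out. The rule itself uses no measured level, but it was set with earlier results of these data known. The match is an entry whose number begins with FR for 1860 members and with EVF for 6. The transcripts are named below by the running numbers of the deposited tables, and members means these 1866.

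EvoFold is a comparative method that scans an alignment of several vertebrate genomes for stretches in which bases that could pair change together, the trace that a conserved RNA stem leaves in evolution. Such structures are known from precursors of microRNAs, from elements of untranslated regions that control stability or translation, and from functional noncoding RNAs. An EvoFold match says that a part of the transcript lies on such a prediction, and it gives the RNA no function and no cell of origin. RNAz, which scores the folding stability of aligned sequences, is the other structure predictor named in the tables and marks 558 transcripts.

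Kidneys came from C57BL/6J mice, wild type (WT) or Smad3 knockout (KO), with 2 libraries in each of 6 groups. Smad3 is the transcription factor through which TGF-β drives fibrosis. The UUO groups had the left ureter tied and the obstructed kidney taken at day 5. The anti-GBM groups had a glomerulonephritis raised with sheep immunoglobulin against mouse glomerular basement membrane, after priming with sheep IgG and complete Freund adjuvant, at 60 μg per g of body weight, and were taken at day 10. The labels call the controls normal and also speak of sham operation for UUO, so it is not known whether the normal kidneys had surgery, and the WT and KO normal groups each serve as control for both models. The Smad3 deletion is in the whole animal per the labels, which name no cell type for it. Whether the 2 libraries of a group are from separate animals is not stated outright, so p-values measure the spread between these libraries, which may be partly technical.

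Library totals ran from 4595261 to 7342937 uniquely mapped reads on listed transcripts. Smad3 is a protein-coding gene and was not analysed here, and 0 of 24 fixed marker genes of kidney and immune cells were found among the 162 transcripts with a gene symbol, so neither the tissue nor the genotype was checked by its markers. In bulk tissue, fewer cells of a type and less RNA per cell cannot be told apart. Strand was not stated, so reads of overlapping or antisense transcripts cannot be separated. Positions and sequences of the members were not analysed here. In 3 libraries, WT UUO 1, KO UUO 1 and KO anti-GBM 1, reads covered less of each transcript than random placement would give: the median ratio was 0.284 to 0.444 there and 0.631 to 0.905 in the other 9. On the members the ratio was 0.177 to 0.264 in these 3 and 0.372 to 0.455 in the other 9. Counts of calls, the UUO responses of both genotypes and those WT UUO fold changes of named members that moved by over 1.5-fold are given with and without these 3.

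The members were long RNAs. Their median length was 3212 bases, with a range of 150 to 14964, against 581 bases over all transcripts and 443 bases for those with no database match. RNAz-matched transcripts had nearly the same median length, 3202.5 bases. The median member had a mean RPKM (reads per kilobase of transcript, scaled to the library total) of 1.72, against 1.71 over all transcripts, and among those tested 4.2 against 2.4. By length the members' median was 1.25 RPKM under 500 bases, 2.37 from 2000 to 4000 and 1.21 above, and that of all transcripts 1.76, 2.52 and 2.42. Members were detected more broadly than all transcripts, since 1056 of the 1866 (56.6%) had reads in all 12 libraries, against 23.4%. RNAz-matched transcripts reached 59.3%, those with other matches 49.6% and those with no match 13.8%. A longer transcript collects more reads at the same level. A further 204 members had fewer than 10 reads in all 12 libraries together.

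Members together held 7916762 reads, 10.52% of the total. A few of them held most of it, as 66 members carried 50% and 369 carried 90% of the members' reads. Their share was 9.8% ± 0.479 (SD, n = 2) in WT normal, 12.5% ± 0.656 in UUO and 10.5% ± 1.01 in anti-GBM kidneys of WT mice. In KO kidneys it was 9.04% ± 0.726 in the normal group, 11.3% ± 1.17 in UUO and 9.91% ± 1.65 in anti-GBM. These shares followed the most abundant transcripts of the libraries, neither of them a member: ncRNA_aligned_3554 took 17% to 35.7% of reads in 9 libraries and 1.95% to 3.68% in the 3 named above, where ncRNA_aligned_7824 took 15.7% to 36.3%. With both left out of the total, members held 15.2% ± 0.017 in WT normal, 15.6% ± 0.491 in WT UUO, 14% ± 0.643 in WT anti-GBM, 14.6% ± 0.496 in KO normal, 15.4% ± 0.626 in KO UUO and 14.4% ± 0.029 in KO anti-GBM. On that scale all 12 libraries lay between 13.529% and 15.908%. Each library listed 1307 to 1634 members, and 1304 to 1603 after thinning to the smallest total.

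ncRNA_aligned_3702, 1785 bases long with match FR296053, was the member with the most reads and 6.36% of all members' reads. Levels in CPM are counts scaled to the library's reads on tested transcripts multiplied by its TMM factor. Its level was 13373 and 12049 CPM in WT normal, 2056 and 2368 after UUO and 3882 and 4465 in anti-GBM kidneys of WT mice. In KO kidneys it was 7290 and 14147 in normal, 3325 and 5283 in UUO, and 6923 and 16300 in anti-GBM. Both UUO groups lay below their normal group, and the KO anti-GBM libraries spanned the KO normal ones. Reads covered 98.3% to 99.5% of the transcript in every library.

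Below it, the abundant short members separated the 3 libraries of least broad coverage from the other 9, in opposite directions and across conditions. ncRNA_aligned_3628 (590 bases) had 194 to 220 RPKM in those 3 libraries and 1054 to 1577 in the other 9. ncRNA_aligned_998 (437 bases) had 282 to 391 RPKM there and 1076 to 3762 elsewhere. In RPKM the same 3 libraries were the lowest for ncRNA_aligned_2346, ncRNA_aligned_3550, ncRNA_aligned_994 and ncRNA_aligned_6545. They were the highest for ncRNA_aligned_972 (594 bases), with 2465 to 7090 RPKM against 143 to 947 in the other 9. ncRNA_aligned_2169 and ncRNA_aligned_2167, which share the match FR188418, also had their 3 highest values there.

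**Figure D1:**
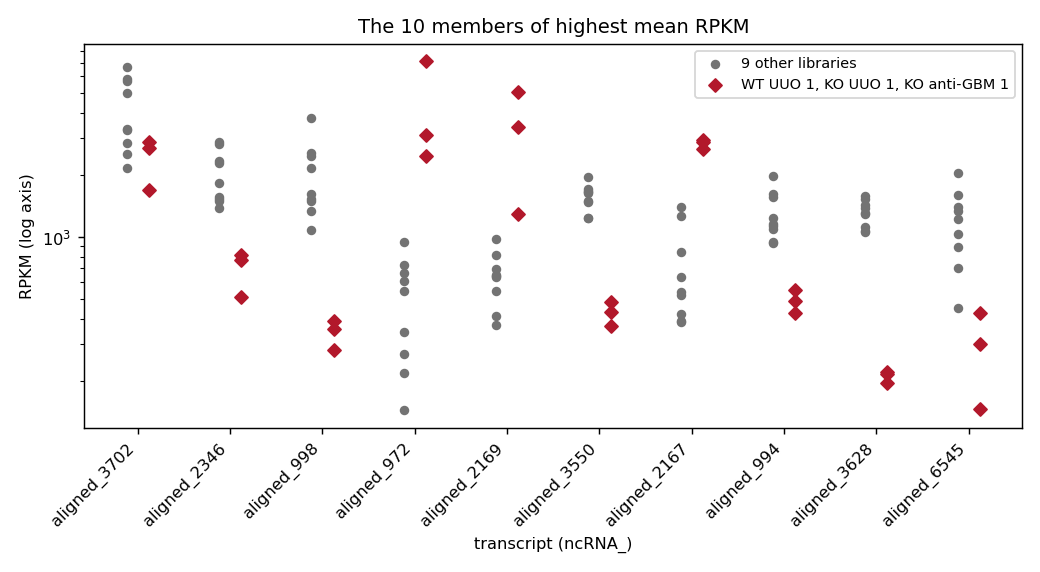
RPKM (log axis) of the 10 members of highest mean RPKM longer than 200 bases, 1 point per library, with the 3 libraries of least broad coverage as red diamonds and the other 9 as grey circles. The diamonds lie below every circle for 6 members and above every circle for ncRNA_aligned_972, ncRNA_aligned_2169 and ncRNA_aligned_2167, and within their range for ncRNA_aligned_3702 apart from 1683 in WT UUO 1.

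On the CPM scale, among members of 100 CPM or more, all 3 of these libraries ranked lowest for 4 of 12 shorter than 1000 bases and for 26 of 228 longer ones. They ranked highest for 3 of the 12 and for 9 of the 228. Over all transcripts of that level the 3 ranked lowest for 50 of 114 short and 151 of 1223 longer ones, and highest for 9 of the 114 and 65 of the 1223. None of the abundant short members passed the test in any comparison below, and the part of coverage in their values was not tested.

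The members of steadiest level were long and covered nearly whole. ncRNA_aligned_693 (5422 bases, match FR166357) had a coefficient of variation of 14.9% over the 12 libraries. Its level was 227 and 234 CPM in WT normal, 216 and 189 after UUO and 268 and 223 with anti-GBM disease in WT, 227 ± 6.88 (SD, n = 2) in KO normal, 241 and 239 in KO UUO, and 318 and 298 in KO anti-GBM. ncRNA_aligned_6236, ncRNA_aligned_6441, ncRNA_aligned_6131 and ncRNA_aligned_4290 followed, with 15.0%, 15.3%, 15.3% and 15.9%. This steadiness belongs to the TMM scale: in RPKM, which divides by all listed reads, ncRNA_aligned_693 ran from 31.7 to 64.

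The first question was which members changed in the obstructed WT kidney. In WT UUO against WT normal, 16 members rose and 43 fell among 1345 that passed the filter on low counts (edgeR's quasi-likelihood test, Benjamini-Hochberg adjusted p under 0.05 over all 24816 transcripts tested). The other 521 members had too few reads to be tested. Of all transcripts tested, 2.42% were called, 0.681% higher and 1.74% lower, and of the members 4.39% were called, 1.19% higher and 3.2% lower. At an unadjusted p under 0.05 the shares were 22.7% of the members and 15.8% of all transcripts. Transcripts with other database matches were called at 5.24%, RNAz-matched ones at 3.56% and those without a match at 1.17%. The median log2 fold change of the tested members was -0.25, against 0.49 over all transcripts, -0.27 for RNAz and -0.21 for other matches.

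The share of members called followed their level. At a mean of 100 CPM or more, 27 of 240 members were called (11.2%), against 15.2% of all transcripts of that level. From 10 to 100 CPM the shares were 5.54% and 7.96%, and from 1 to 10 CPM 1.08% and 1.15%. Within every band of level the members were therefore called no more often than all transcripts. Whether their read numbers account for the higher share over all members was not tested. By length, 0 of 24 tested members under 500 bases and 0 of 95 from 500 to 1000 were called, against 5.93% from 1000 to 2000 bases, 4.71% from 2000 to 4000 and 4.35% above. Over all transcripts the shares in these bands were 0.843%, 0.923%, 2.42%, 6.45% and 5.77%, so calls were also rare among short transcripts in general. From 1000 to 2000 bases members were called more often than all transcripts, and in the other bands of length less often.

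**Figure D2:**
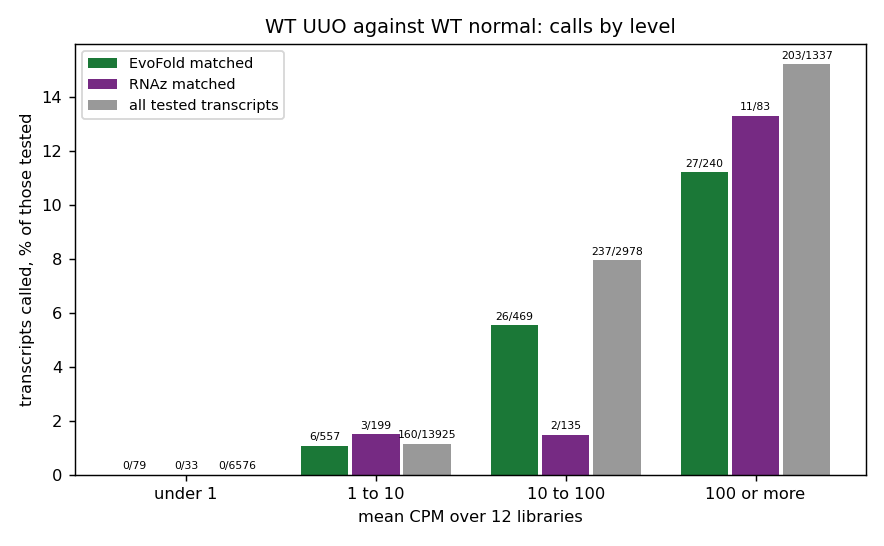
Share of tested transcripts called in WT UUO against WT normal (y axis, percent) in 4 bands of mean CPM over 12 libraries (x axis), for EvoFold-matched, RNAz-matched and all tested transcripts, with called and tested numbers above the bars. Calls became more frequent with level in the members and in all transcripts, up to 11.2% and 15.2% in the top band.

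The scale matters for the split between higher and lower calls. TMM set the WT UUO libraries lower against WT normal than division by all reads does. With library size alone the median log2 fold change moved to 0.81 for the members and 1.55 for all transcripts, a shift of over 1 from 0.49, and the calls became 90 higher and 11 lower, with 3.57% of all transcripts called higher and 0.552% lower. All 59 members called under TMM had the same sign with library size alone, and 16 of the 16 higher and 11 of the 43 lower ones remained called. The members that fell did so relative to the bulk of transcripts.

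ncRNA_aligned_6523 (2348 bases, match FR025795) fell most surely in WT UUO. It had 377 and 302 CPM in WT normal, 34.3 and 39 in WT UUO, then 86.5 and 151 in WT anti-GBM. In KO it had 530 and 372 CPM in normal, 123 and 98.7 in UUO, and 629 and 1630 in anti-GBM kidneys. The WT UUO libraries were the lowest of the 12 and KO anti-GBM 2 the highest. The log2 fold change in WT UUO was -3.21 ± 0.49 (SE, edgeR adjusted p = 0.000761), and -2.15 with library size alone (adjusted p = 0.00597).

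ncRNA_aligned_3669 (1305 bases) had 428 and 390 CPM in WT normal and 13 and 44.8 in WT UUO, a log2 fold change of -3.82 ± 0.63 (edgeR adjusted p = 0.00208), and -3.19 without the 3 libraries of least broad coverage. Its KO libraries had 228 and 271 CPM in normal and 50.1 and 93.4 in UUO. ncRNA_aligned_3702, described above, fell by 2.52 on the log2 scale (SE 0.42, edgeR adjusted p = 0.0016). ncRNA_aligned_3384 (6021 bases) went from 95.1 and 110 CPM to 17.6 and 6.97, a log2 fold change of -3.07 ± 0.56 (edgeR adjusted p = 0.00317), and -3.87 without those 3. In each of these the WT normal and WT UUO libraries were far apart compared with the distance between libraries of a group.

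ncRNA_aligned_997 (4262 bases) and ncRNA_aligned_5103 (4292 bases) share the match FR374449 and moved together, with a correlation of 0.960 over the 12 libraries, so they may share reads and are not independent. ncRNA_aligned_997 had 86.8 and 107 CPM in WT normal and 15.3 and 9.4 in WT UUO, a log2 fold change of -2.97 ± 0.48 (edgeR adjusted p = 0.00132). ncRNA_aligned_5103 had 169 and 208 CPM and then 39.9 and 19.9, a change of -2.66 ± 0.48 (edgeR adjusted p = 0.00256). Reads lay on a small part of both, with a median of 11.8% of ncRNA_aligned_997 and 13.7% of ncRNA_aligned_5103 covered. In KO kidneys ncRNA_aligned_997 had 65.6 and 74.2 CPM in normal and 71.6 and 62.2 in UUO, and ncRNA_aligned_5103 had 180 and 162 in normal and 168 and 103 in UUO, so that the groups overlapped or nearly met.

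These 6 members, ncRNA_aligned_6523, ncRNA_aligned_3669, ncRNA_aligned_3702, ncRNA_aligned_3384, ncRNA_aligned_997 and ncRNA_aligned_5103, stayed called when any 1 of the 12 libraries was left out, with a highest adjusted p of 0.0493. None of the 16 higher members did. Of the 59, 49 were lost without WT normal 1, 49 without WT normal 2, 44 without WT UUO 1 and 28 without WT UUO 2. Without the 3 libraries of least broad coverage, 58 of the 59 remained, all but ncRNA_aligned_1001, among 199 members then called (40 higher, 159 lower, with 10.8% of all transcripts called). All 59 kept their sign there, and 10 of their fold changes moved by over 1.5-fold, 9 of these towards 0. The median of the 16 higher ones went from 3.08 to 2.98 on the log2 scale and that of the 43 lower ones from -2.25 to -2.20. DESeq2 called 111 members (49 higher, 62 lower), with 5.55% of all transcripts, and 58 of the 59 were among them.

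The largest falls by size were in less abundant members. ncRNA_aligned_1102 (3337 bases) had 15.6 and 15.2 CPM in WT normal and 0.298 and 0.336 in WT UUO, a log2 fold change of -5.51 ± 1.03 (edgeR adjusted p = 0.00383, and 0.0596 without WT UUO 1). ncRNA_aligned_1001 had 24.2 and 23.6 CPM and then 0.596 and 0.924, a change of -4.91 ± 1.03 (edgeR adjusted p = 0.00882, up to 0.149 with 1 library left out); without the 3 libraries of least broad coverage it was -4.66 and not called (adjusted p = 0.164). ncRNA_aligned_7325 had 52.2 and 62.9 CPM and then 2.09 and 2.01, a change of -4.80 ± 0.96 (edgeR adjusted p = 0.00877, up to 0.166 with 1 left out). The WT UUO libraries held 2 and 4 reads of ncRNA_aligned_1102, 4 and 11 of ncRNA_aligned_1001 and 14 and 24 of ncRNA_aligned_7325, which makes these folds imprecise. In KO normal, ncRNA_aligned_1001 and ncRNA_aligned_7325 were uneven or low, at 2.23 and 25.4 CPM and at 4.87 and 10.2 CPM.

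ncRNA_aligned_899 (3264 bases) had 42.3 and 30.8 CPM in WT normal and 3.58 and 2.94 in WT UUO, a log2 fold change of -3.49 ± 0.62 (edgeR adjusted p = 0.00253, and 0.0514 without WT normal 1). ncRNA_aligned_4547 and its neighbour in the numbering ncRNA_aligned_4548, both with match FR038474, changed by -3.76 ± 0.97 and -2.74 ± 0.66 (edgeR adjusted p = 0.0372 and 0.0243). Shared matches joined other members that fell as well: ncRNA_aligned_3429 and ncRNA_aligned_3430 (FR221680, -2.28 and -2.43) and ncRNA_aligned_856 and ncRNA_aligned_857 (FR146612, -2.23 and -2.67). Within each of these pairs the correlation over the 12 libraries was 0.891 to 0.957. The 43 lower members therefore carry 39 distinct entries.

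The 16 members that rose had a median of 7.73 CPM in WT normal and 76.4 in WT UUO, and the 43 that fell 179 and 35.2. Over all tested members the medians were 11.2 and 9.83. Both sets were chosen by this comparison, so part of their contrast follows from the choice. ncRNA_aligned_2387 (2919 bases) had 0.855 and 1.08 CPM in WT normal and 31.4 and 37.8 in WT UUO, a log2 fold change of 5.13 ± 1.02 (edgeR adjusted p = 0.00622, up to 0.163 with 1 library left out). ncRNA_aligned_7722 (3162 bases) had 2.57 and 3.47 CPM and then 105 and 38.2, a change of 4.56 ± 0.79 (edgeR adjusted p = 0.00215, and 0.0822 without WT normal 1), and 3.66 without the 3 libraries of least broad coverage. In both, every WT UUO value was above the WT anti-GBM and KO values, which were 0.203 to 12.2 CPM for ncRNA_aligned_2387 and 1.62 to 28.2 for ncRNA_aligned_7722.

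ncRNA_aligned_4855 and ncRNA_aligned_4856 share the match FR360488 and rose by nearly the same factor. Their log2 fold changes were 4.34 ± 0.87 and 4.32 ± 0.77 (edgeR adjusted p = 0.00642 and 0.00256, up to 0.171 and 0.0938 with 1 library left out). ncRNA_aligned_4856, the longer and more abundant of the pair, had 3.63 and 4.34 CPM in WT normal, 102 and 57.8 in WT UUO, 1.83 and 13.2 in KO normal and 21.8 and 32.5 in KO UUO. Both genotypes had higher values in UUO than in normal kidneys, without overlap.

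ncRNA_aligned_6195 (8738 bases) rose from 16.7 and 10.4 CPM to 197 and 113, a change of 3.51 ± 0.59 (edgeR adjusted p = 0.00179, and 0.0876 without WT normal 2). It had 69.8 and 76.3 CPM in KO UUO against 9.14 and 22 in KO normal. ncRNA_aligned_5773 (5922 bases) rose from 10.3 and 5.2 CPM to 148 and 62.5, a change of 3.76 ± 0.75 (edgeR adjusted p = 0.00607, up to 0.184 with 1 library left out), and 3.01 without those 3. Its reads covered only 2.99% to 8.22% of its length, and where they lie in it was not analysed.

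ncRNA_aligned_4213, at 14964 bases the longest member, was the most abundant among those that rose. It had 353 and 283 CPM in WT normal, 2739 and 1177 in WT UUO, 360 and 339 in KO normal and 1933 and 708 in KO UUO. Its log2 fold change in WT UUO was 2.62 ± 0.49 (edgeR adjusted p = 0.00382), and 1.89 without the 3 libraries of least broad coverage (adjusted p = 8.83e-05). In each genotype the library of least broad coverage was the higher of the 2, and the other UUO library still lay above both normal ones.

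**Figure D3:**
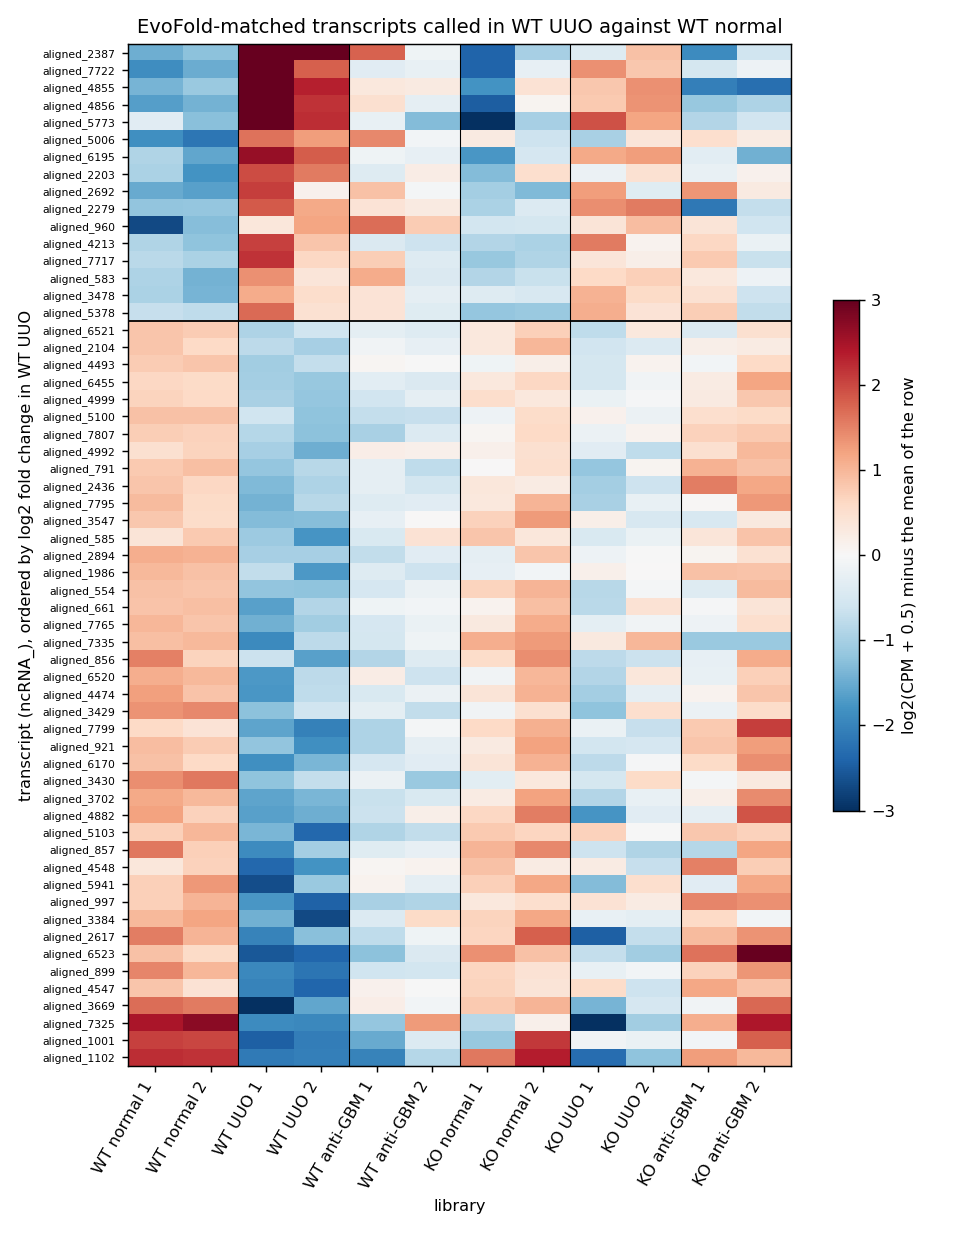
Level of the 59 called members (rows, ordered by log2 fold change in WT UUO, higher above the black line) in the 12 libraries (columns), as log2(CPM + 0.5) minus the mean of the row. WT normal and WT UUO differ by the choice of rows, and the 4 KO normal and KO UUO columns show the same direction more faintly in most rows.

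The second question was whether the KO kidney responded to UUO in the same way. In KO UUO against KO normal, 0 members were called by edgeR, with 0.0121% of all transcripts called. At an unadjusted p under 0.05 there were 111 members (8.25%, against 5.98% of all transcripts), and DESeq2 called 13, 10 of them higher, with 0.496% of all transcripts. Without the 3 libraries of least broad coverage 22 were called (14 higher, 8 lower, with 0.851% of all transcripts), with 1 library in the KO UUO group. The KO libraries are separate from the WT libraries, so the direction of the 59 WT calls could be read in them.

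Of the 16 members that rose in WT UUO, 15 had a positive log2 fold change in KO UUO, 12 of them with an unadjusted p under 0.05. Of the 43 that fell, 41 had a negative one, 20 with an unadjusted p under 0.05. Over all transcripts called in WT UUO, 87.0% of the higher and 86.5% of the lower ones had the same sign in KO. Of the 169 higher ones 68, and of the 431 lower ones 170, also had an unadjusted p under 0.05 there. The median log2 fold change of the 16 was 3.08 in WT and 1.85 in KO, and that of the 43 was -2.25 and -0.96. Over all transcripts called in WT UUO the medians were 4.05 and 1.30 for the higher ones and -2.77 and -0.91 for the lower ones. All 59 were smaller in KO, which follows in part from choosing them by their WT response, and the test of the difference called 0 of them (5 of the higher and 20 of the lower ones had an unadjusted p under 0.05). Over all transcripts called in WT UUO, 166 of the 169 higher and 425 of the 431 lower ones were smaller in KO, and the test of the difference called 4 and 10 of them, with 102 and 260 at an unadjusted p under 0.05. Over the 1345 tested members the log2 fold changes of WT and KO UUO correlated at r = 0.505 (rho = 0.516), against 0.354 over all transcripts tested. Without the 3 libraries of least broad coverage, which leaves 1 UUO library in each genotype, 16 of the 16 and 39 of the 43 had the same sign in KO, with medians of 1.51 and -0.90, and 14 and 43 were smaller there than in WT. Over all transcripts called in WT UUO the same sign was then found for 86.4% of the higher and 80.7% of the lower ones. The correlation was r = 0.368 over the members and 0.225 over all transcripts. These are descriptions across transcripts, which share libraries and are not independent.

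Among members of 5 CPM or more, the 3 of smallest p in each direction in KO UUO were ncRNA_aligned_5773, ncRNA_aligned_814 and ncRNA_aligned_4213 on the higher side and ncRNA_aligned_1102, ncRNA_aligned_6523 and ncRNA_aligned_2617 on the lower side. All but ncRNA_aligned_814 were called in WT UUO. ncRNA_aligned_5773 had 1.02 and 6.36 CPM in KO normal and 51.1 and 30.5 in KO UUO, a log2 fold change of 3.47 ± 0.75 (edgeR adjusted p = 0.165), close to its WT value of 3.76. ncRNA_aligned_1102 had 9.95 and 17.3 CPM and then 0.213 and 1 (-4.52 ± 0.98, edgeR adjusted p = 0.165). ncRNA_aligned_6523 differed by -2.02 ± 0.46 (edgeR adjusted p = 0.2). ncRNA_aligned_814 had 12.4 and 11.1 CPM in KO normal and 32.9 and 107 in KO UUO (edgeR adjusted p = 0.237), while WT normal had 49.6 and 43.1 and WT UUO 25.8 and 50.9, which overlapped.

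**Figure D4:**
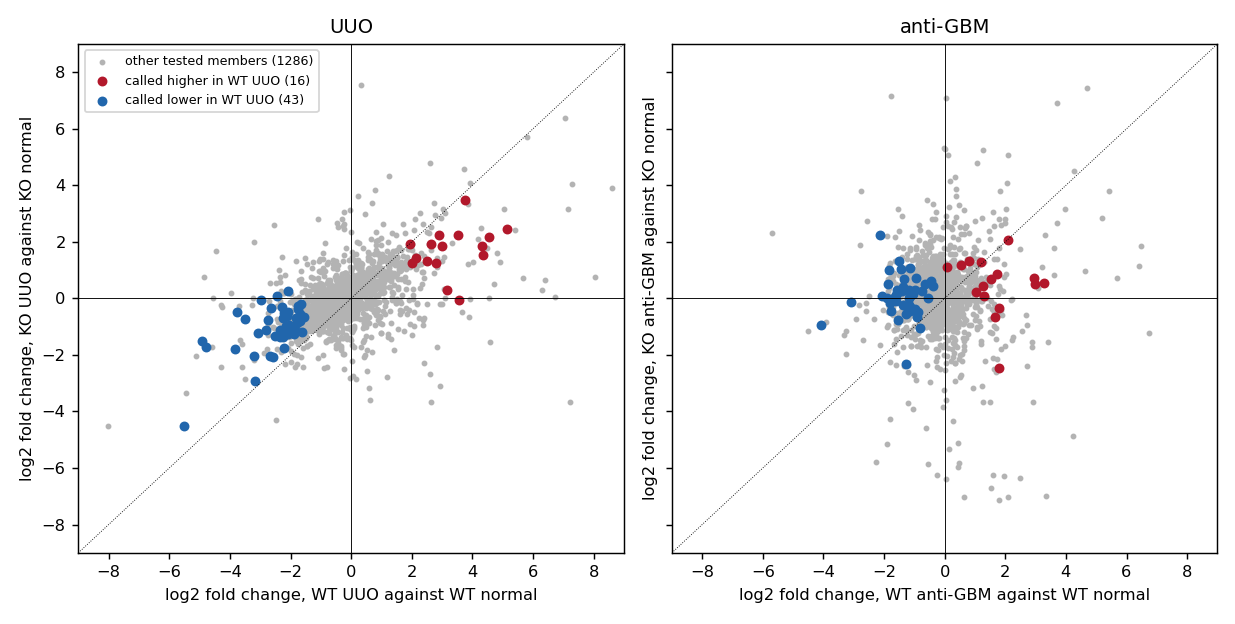
Log2 fold change of the 1345 tested members in WT (x axis) and KO (y axis) for UUO (left) and anti-GBM disease (right), with the 16 members called higher in WT UUO in red, the 43 called lower in blue and a dotted line of equal change. In UUO 15 of the 16 red points lie above 0 and 41 of the 43 blue points below 0 on the KO axis, nearer to 0 than on the WT axis (r = 0.505 over all points), and in anti-GBM disease they spread on both sides of 0 on the KO axis (r = 0.051).

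The difference between genotypes in the UUO response, tested as an interaction, called 0 members, with 0.0604% of all transcripts called. At an unadjusted p under 0.05 there were 73 members, and 5.63% of all transcripts. DESeq2 called 6 members and 0.52% of all transcripts, and 23 members were called without the 3 libraries, with 1.67% of all. The smallest p-values belonged to ncRNA_aligned_997 and ncRNA_aligned_1572, both with an adjusted p of 0.103. ncRNA_aligned_997 differed by 2.91 ± 0.65 on the log2 scale, with -2.97 in WT and -0.06 in KO. ncRNA_aligned_1572 (6053 bases) had 494 and 664 CPM in WT normal, 287 and 111 in WT UUO, 136 and 168 in KO normal and a mean of 407 in KO UUO, where both libraries lay above both KO normal ones, so the groups moved in opposite directions without overlap. ncRNA_aligned_5006 differed by -3.62 ± 0.87 (edgeR adjusted p = 0.16): it had 6.63 and 5.2 CPM in WT normal and 79.3 and 60.6 in WT UUO, but 30.5 and 16.1 in KO normal and 12.5 and 32.5 in KO UUO.

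**Figure D5:**
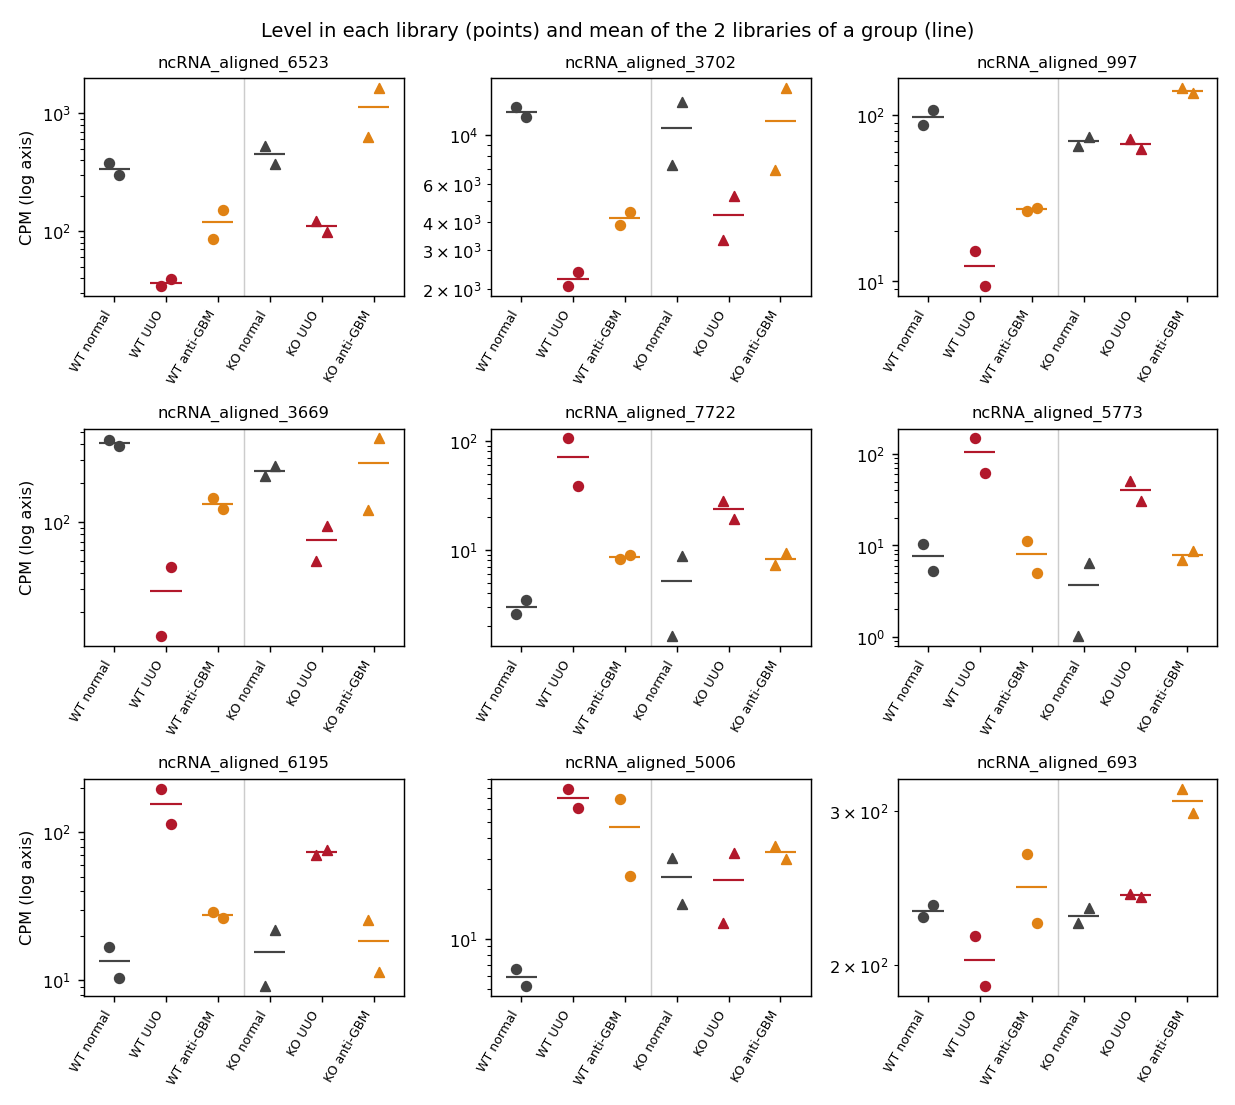
CPM (log axis, own range in each panel) of 9 members in the 6 groups, with 1 point per library (circles WT, triangles KO) and a line at the mean of the 2 libraries. ncRNA_aligned_6523, ncRNA_aligned_3702 and ncRNA_aligned_3669 are lower in UUO in both genotypes, ncRNA_aligned_7722, ncRNA_aligned_5773 and ncRNA_aligned_6195 higher, ncRNA_aligned_997 and ncRNA_aligned_5006 are shown for their KO values near the KO normal level in UUO, and ncRNA_aligned_693 for its steadiness.

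In WT anti-GBM against WT normal, edgeR called 0 members with all 12 libraries, with 0.0201% of all transcripts called. There were 117 members at an unadjusted p under 0.05 (8.7%, against 6.56% of all transcripts), and DESeq2 called 9, with 0.669% of all transcripts. The result depends on which libraries set the spread: with only the 4 libraries compared 159 members were called (26 higher, 133 lower, with 9.2% of all transcripts called, 4.14% higher and 5.05% lower), and without the 3 libraries of least broad coverage 116 (17 higher, 99 lower, with 6.53% of all transcripts called). None of those 3 libraries is in the comparison. It shares the WT normal libraries with the UUO comparison, which pulls members chosen by that comparison in the same direction here. The members called higher in WT UUO had a median log2 fold change of 1.59 in WT anti-GBM, and those called lower -1.27. Over all transcripts called in WT UUO these medians were 1.90 and -1.46.

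The highest-ranked members in WT anti-GBM were ncRNA_aligned_5006, ncRNA_aligned_960 and ncRNA_aligned_3525 on the higher side. ncRNA_aligned_5006 had 69.1 and 23.7 CPM in WT anti-GBM against 6.63 and 5.2 in WT normal (2.97 ± 0.64, edgeR adjusted p = 0.119 with 12 libraries and 0.000127 with 9). ncRNA_aligned_960 had 45.6 and 24 CPM against 1.71 and 5.42 (3.28 ± 0.71, edgeR adjusted p = 0.119). ncRNA_aligned_3525 had 66.7 and 13.2 CPM against 3.85 and 5.64. On the lower side, ncRNA_aligned_3430 had 339 and 176 CPM against 1011 and 1139 (-2.06 ± 0.46, edgeR adjusted p = 0.119), ncRNA_aligned_3429 with the same match had 726 and 532 against 2278 and 2439, and ncRNA_aligned_1102 had 0.366 and 1.42 against 15.6 and 15.2. All 6 had anti-GBM values outside the range of WT normal, which follows in part from ranking them by p in this comparison.

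In KO anti-GBM against KO normal edgeR also called 0 members, with 0.0524% of all transcripts called. There were 127 members at an unadjusted p under 0.05, 90 higher and 37 lower (9.44%, against 8.75% of all transcripts). DESeq2 called 7, with 0.427% of all transcripts, and 12 were called without the 3 libraries, with 0.948% of all. Of the 59 members called in WT UUO, the 16 higher had a median log2 fold change of 0.60 and the 43 lower one of 0.09 here. Over all transcripts called in WT UUO these medians were 0.28 and -0.11. The correlation of WT and KO anti-GBM log2 fold changes over the members was r = 0.051, and -0.069 over all transcripts. The highest-ranked members on the higher side were carried by single libraries. ncRNA_aligned_1006 had 24.2 and 2.76 CPM in KO anti-GBM and 1.02 and 0.454 in KO normal. ncRNA_aligned_9142 had 212 and 1704 CPM in KO anti-GBM and 40.5 to 192 in the other 10 libraries, and ncRNA_aligned_11000, which shares its match FR350670, had 29.1 and 161. On the lower side ncRNA_aligned_7335 (6072 bases) had 18.3 and 18.5 CPM against 86.3 and 99.2 in KO normal (-2.33 ± 0.52, edgeR adjusted p = 0.195), and it also fell in WT UUO, with 76.5 and 80.2 in WT normal and 10.4 and 23.3 there (adjusted p = 0.0212).

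Between genotypes in normal kidneys edgeR called 0 members, with 0.0161% of all transcripts called. There were 23 members at an unadjusted p under 0.05 (1.71%, against 2.22% of all transcripts), and DESeq2 called 0, with 0.177% of all transcripts. The count was 14 with only those 4 libraries, with 0.894% of all transcripts called, and 13 without the 3 of least broad coverage, with 0.742% of all transcripts. ncRNA_aligned_7512 (4200 bases) had 394 and 439 CPM in WT and 114 and 104 in KO normal kidneys (-1.93 ± 0.46, edgeR adjusted p = 0.367). ncRNA_aligned_1572 had 494 and 664 CPM in WT and 136 and 168 in KO. ncRNA_aligned_1828 had 49.8 and 32.5 in WT and 105 and 147 in KO. These groups did not overlap, which follows in part from ranking the members by p, and none passed the adjusted test.

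In UUO kidneys 0 members were called between genotypes by edgeR, with 0.00806% of all transcripts called. There were 81 members at an unadjusted p under 0.05 (6.02%, against 6.08% of all transcripts). DESeq2 called 5, with 0.447% of all transcripts, and 8 were called without the 3 libraries, with 0.476% of all. The pair with match FR374449 ranked first: ncRNA_aligned_997 had 15.3 and 9.4 CPM in WT UUO and 71.6 and 62.2 in KO UUO (2.44 ± 0.47, edgeR adjusted p = 0.0831), and ncRNA_aligned_5103 had 39.9 and 19.9 against 168 and 103 (2.18 ± 0.47, edgeR adjusted p = 0.123). ncRNA_aligned_7694 had 245 and 199 CPM in WT UUO and 681 and 840 in KO UUO (1.78 ± 0.41, edgeR adjusted p = 0.165). The WT and KO UUO libraries of all 3 did not overlap, which follows in part from ranking them by p. None of the 3 passed the adjusted test.

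In anti-GBM kidneys 1 member, ncRNA_aligned_6523, was higher in KO than in WT, with 0.0201% of all transcripts called, 0.0161% in this direction. It had 86.5 and 151 CPM in WT and 629 and 1630 in KO anti-GBM kidneys, a log2 difference of 3.25 ± 0.49 (edgeR adjusted p = 0.0181). The call was lost without KO anti-GBM 2 (2.41, adjusted p = 0.109), without WT anti-GBM 1 (2.87, adjusted p = 0.294) and with a stricter filter (adjusted p = 0.0707). There were 198 members at an unadjusted p under 0.05 (14.7%, against 14.8% of all transcripts), and DESeq2 called 32, with 1.75% of all transcripts. A further setting gave far more, as 149 were called without the 3 libraries (127 higher, 22 lower, with 7% of all transcripts called), when KO anti-GBM 2 alone stands for its group. The median log2 difference of the members was 0.35, against -0.62 over all transcripts. It was 0.22 for RNAz-matched transcripts, 0.11 for those with other matches and -1.17 for those without a match. The members whose levels over the 12 libraries were most like that of ncRNA_aligned_6523 were ncRNA_aligned_7799 (r = 0.973), ncRNA_aligned_6385 (0.945) and ncRNA_aligned_5004 (0.937).

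ncRNA_aligned_997, ncRNA_aligned_5004 and ncRNA_aligned_7799 came next on the higher side among members of 5 CPM or more. ncRNA_aligned_997 had 26.6 and 27.7 CPM in WT and 145 and 136 in KO anti-GBM kidneys (2.37 ± 0.47, edgeR adjusted p = 0.0519, and 0.000164 without the 3 libraries). ncRNA_aligned_5004 differed by 1.81 on the log2 scale (edgeR adjusted p = 0.0926). ncRNA_aligned_7799 had 274 and 500 CPM in WT and 902 and 2192 in KO (2.00 ± 0.45, edgeR adjusted p = 0.0926). On the lower side ncRNA_aligned_4745 had 35.6 and 35.1 CPM in WT and 6.7 and 8.86 in KO (-2.18 ± 0.58, edgeR adjusted p = 0.161). The interaction of genotype and anti-GBM disease called 0 members, with 0.0161% of all transcripts called. There were 130 members at an unadjusted p under 0.05 (9.67%, against 10% of all transcripts), and DESeq2 called 6, with 0.508% of all transcripts. Without the 3 libraries 84 were called, 71 of them higher, with 4.31% of all transcripts. The largest evidence was again for ncRNA_aligned_6523 (2.84 ± 0.64) and ncRNA_aligned_997 (2.85 ± 0.64), both with an edgeR adjusted p of 0.163.

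Several members can carry the same EvoFold entry. The 1866 members have 1111 distinct entries, and 431 entries are shared by 2 or more members, 1186 members in all. Tested members that share an entry formed 477 pairs, with a median correlation over the 12 libraries of 0.377, against 0.050 over all pairs of tested members. Both members of a pair had the same sign in WT UUO in 67.3% of these pairs and in 51.3% of all pairs. The entry with most members, FR165291, has 10, numbered in a row from ncRNA_aligned_1327 to ncRNA_aligned_1336. Of these 6 were tested, all with a negative log2 fold change in WT UUO from -2.74 to -0.53, and none was called. Such members may be pieces or copies of 1 RNA, and they are not independent observations.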

How the data were processed

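Per the labels' protocols, kidney RNA was extracted with Trizol, depleted of ribosomal RNA, sized on a urea gel, and RNA over 150 bases was sequenced. The submitters' processing notes name Bowtie 0.12.7 and the mouse build mm9; how transcripts were assembled and reads assigned is not given in the sources used here. The authors deposited for each transcript, as the headers name them, a count of unique reads, an RPKM, the percent of its length covered and a mean depth (coverage signal). RPKM equalled reads per length and per total listed reads. Tables list only transcripts with reads, and absent ones were set to 0.

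The members and lists were chosen with earlier results of these data known. The 12 count tables were fitted with edgeR 4.0.16 (R 4.3.3): TMM scaling, filterByExpr (24816 of 42452 transcripts kept), 1 mean per group, robust quasi-likelihood F tests of 9 comparisons and Benjamini-Hochberg adjustment over all transcripts tested, with calls at an adjusted p under 0.05. Adjusted p-values are edgeR's where DESeq2 (1.42.0) is not named. With 2 libraries against 2 an exact permutation p cannot go below 0.3333, so calls rest on a spread pooled over 12 libraries. Over members, the 2 libraries of a group differed by a chi-square per degree of freedom from 7.74 (WT normal) to 126 (WT UUO). SE is the standard error from the F statistic, and SD is over 2 libraries. The procedure was also run on simulated counts, with the same spread for a transcript in all 12 libraries. The real groups differ in spread, so that run cannot show how the pooled spread performs here. Breadth of coverage is the covered length divided by the length that as many random reads would cover, as a median over transcripts above 500 bases that hold 20 to 200 reads. Correlations between members use log2 CPM with a prior count of 2.

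Named members are the 10 of highest mean RPKM (over 200 bases) and of highest mean CPM, up to 6 per direction and comparison of largest change among those called (mean of 2 CPM or more, groups not overlapping), otherwise the 3 of smallest p (5 CPM or more), the 5 of smallest variation (10 CPM or more), and the 3 most like the most surely called member. Members outside it (ncRNA_aligned_3384, ncRNA_aligned_4548, ncRNA_aligned_856, ncRNA_aligned_857, ncRNA_aligned_6195 and, for WT UUO, ncRNA_aligned_3702, ncRNA_aligned_997, ncRNA_aligned_5103, ncRNA_aligned_3429, ncRNA_aligned_3430, ncRNA_aligned_4213, ncRNA_aligned_6523 and ncRNA_aligned_7335) were chosen after their values were seen. Alternatives were DESeq2 size factors, library size alone, no filter, a stricter filter, the DESeq2 test, only the groups compared, each library left out, and the 3 libraries of least broad coverage left out.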

Additional observations from a re-analysis of the deposited data

Results flagged for a closer look

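Only the members named for a comparison that involves the same disease were searched here, and most of them had been picked for a small p. For 7 of these the 2 WT and the 2 KO libraries of a disease group lay on opposite sides of their normal groups. The other members were not searched, so 7 is not a count over all members. The difference between genotypes in the response was tested as an interaction by edgeR, and none passed with adjustment over all transcripts. In UUO the differences on the log2 scale, KO response minus WT response, were 2.96 for ncRNA_aligned_1572 (adjusted p = 0.103), 2.33 for ncRNA_aligned_1986 (adjusted p = 0.16) and 1.94 for ncRNA_aligned_7694 (adjusted p = 0.361). In anti-GBM disease they were 2.85 for ncRNA_aligned_997 and 2.84 for ncRNA_aligned_6523 (both adjusted p = 0.163), 2.46 for ncRNA_aligned_1986 (adjusted p = 0.178), 1.80 for ncRNA_aligned_5004 (adjusted p = 0.369) and -2.79 for ncRNA_aligned_4745 (adjusted p = 0.317). ncRNA_aligned_1986 (3455 bases) is the member found in both models: it had 604 and 560 CPM in WT normal, 184 and 92.3 in its UUO group, 235 and 199 in its anti-GBM group, 256 and 287 in KO normal, 341 and 310 in KO UUO, and 561 and 556 in KO anti-GBM. Its KO normal level lay below its WT normal level, and both models share those normal libraries.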

How the results depend on the processing

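Counts of called members depended strongly on which libraries set the spread and on the scaling, and the causes were not tested. The counts in this section are of members alone. Shares of all transcripts are given above for the DESeq2 test and for the fit without the 3 libraries of least broad coverage. For the other settings most shares are not given, so these counts cannot show whether members moved more than all transcripts. The counts are given in this order: WT UUO, WT anti-GBM, KO UUO, KO anti-GBM, KO against WT in normal, UUO and anti-GBM kidneys, and the interactions for UUO and anti-GBM. As reported they were 59 (16 higher, 43 lower), 0, 0, 0, 0, 0, 1, 0 and 0. Without a filter they were 107 (23 higher, 84 lower), 11, 12, 8, 4, 3, 18, 4 and 3, with the 521 sparse members tested as well. Without the 3 libraries of least broad coverage they were 199 (40 higher, 159 lower), 116, 22, 12, 13, 8, 149, 23 and 84. With the DESeq2 test they were 111 (49 higher, 62 lower), 9, 13, 7, 0, 5, 32, 6 and 6. With only the groups compared, 22 were called higher and 84 lower for WT UUO, 159 for WT anti-GBM, 2 in KO anti-GBM, 14 between genotypes in normal and 26 in anti-GBM kidneys, and 4 in the anti-GBM interaction. With library size alone, 101 were called in WT UUO (90 higher, 11 lower), 5 in WT anti-GBM, 12 in KO UUO, 10 between genotypes in anti-GBM kidneys and 1 in the UUO interaction. DESeq2 size factors gave 2 between genotypes in anti-GBM kidneys and 56 in WT UUO (23 higher, 33 lower), and the stricter filter gave 0 for the former.

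Leaving out 1 library gave 10 to 116 called members in WT UUO (0 to 25 higher, 9 to 91 lower), 0 to 5 in WT anti-GBM, 0 to 23 in KO UUO, 0 to 2 in KO anti-GBM, 0 to 1 between genotypes in normal, 0 to 2 in UUO and 0 to 9 in anti-GBM kidneys, 0 to 2 in the UUO interaction and 0 in the anti-GBM one. The lowest counts in WT UUO came without WT normal 1 or 2 (10 each) and without WT UUO 1 (15), and 116 came without either KO UUO library. In KO UUO, 23 came without KO UUO 2, which leaves 1 library of narrow coverage in that group; a lone library is assumed to vary like the other groups.

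The members' median log2 fold change moved with the scaling. With library size alone it was 0.81 in WT UUO, 0.46 in WT anti-GBM and 0.57 in KO UUO, -0.20 and -0.41 for KO against WT in UUO and anti-GBM kidneys, and -0.18 and -0.35 for the interactions. With DESeq2 size factors it was 0.02, -0.08, 0.08, 0.09 for KO against WT in UUO, and 0.12 and 0.34 for the interactions. With 1 library left out it ranged from -0.44 to -0.22 in WT UUO, -0.45 to -0.10 in WT anti-GBM, -0.34 to 0.03 in KO UUO, -0.06 to 0.24 in KO anti-GBM, -0.12 to 0.30 and 0.09 to 0.57 for KO against WT in UUO and anti-GBM kidneys, and -0.09 to 0.41 and 0.17 to 0.63 for the interactions. The members' mean share of reads was 10.51%, and 14.85% without the 2 most abundant transcripts in the total. The mean number of members detected in a library was 1496, and 1263 at 5 or more reads.

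For the 61 values of single named members, 970 of 1159 values under the alternatives kept their direction and side of the threshold, 151 passed it only there, 38 no longer passed it and 0 changed sign. Most of the 61 were not called as reported, so most of the 1159 values could not lose a call. Of the 59 calls in WT UUO, 6 were kept whichever single library was left out. No paired analysis was possible because the labels give no replicate numbers, and those used here only name libraries in accession order.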

Other observations

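An RFAM family was also recorded for 275 members (14.7%), from 66 families, against 10.0% of all transcripts and 18.8% of RNAz-matched ones. The most frequent were isrG (28 members), SRP_euk_arch (23), IRES_Cx43 (13) and snR42 (11). isrG was described in Salmonella and snR42 in yeast, so these labels mark a resemblance within a long transcript and not its identity; SRP_euk_arch is the RNA of the signal recognition particle, which brings ribosomes to the endoplasmic reticulum. Of the 222 tested members with such a label 3 were called in WT UUO (1.35%), and of the 1123 without one 56 (4.99%). Of all transcripts tested, 2.42% were called. The median length was 4745 bases for members with a label and 2958 for those without one. Whether the label itself goes with fewer calls was not tested. Families of internal ribosome entry sites, elements that start translation inside an mRNA, marked 43 members from 13 families, 32 of them tested, and 1 was called: ncRNA_aligned_6195, labelled IRES_KSHV.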
